A study of Mus musculus with 8 samples.

Results

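Genes of xenobiotic metabolism and conjugation were compared between ileum of LGR5-null mouse embryos and ileum of wild-type embryos. The members are the genes whose symbols belong to the cytochrome P450 families Cyp1 to Cyp4, the UDP-glucuronosyltransferases (Ugt1 and Ugt2), the soluble glutathione transferases (Gst classes alpha, mu, omega, pi, theta, kappa and zeta), the microsomal glutathione transferases (Mgst) and the sulfotransferases (Sult). The rule selected 154 probes for 106 genes out of 15123 named genes, and used symbols alone. Of the 106, 18 were taken as gut-type enzymes, 44 as liver-type enzymes and 44 as neither. The split used textbook knowledge of the tissues in which mice use these enzymes, with earlier results of these data known.

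These enzymes clear drugs, dietary chemicals, hormones, bilirubin and bile acids. Cytochrome P450 enzymes oxidise a substrate, and the transferases then couple it to glutathione, glucuronic acid or sulfate, which makes it soluble enough for export. Intestinal epithelium is the barrier that meets dietary chemicals before blood carries them to the liver, the organ with the highest content of many of these enzymes, and much of the programme matures around birth.

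The series holds 8 arrays of 70-base mouse oligonucleotides from 4 embryo pairs, each an LGR5-/- and an LGR5 +/+ embryo from late gestation (E18.5). LGR5+/- parents from 3 couples produced these embryos, so at least 2 pairs may have parents in common. Each pair was hybridised on 2 arrays, with the null sample in Cy5 on one and in Cy3 on the other. Values are log2 ratios of null over wild type, averaged over the probes of a gene and over both arrays of a pair, so 0 means equal signal. Lgr5 stood at -1.61, -0.92, -1.92 and -1.93 in pairs 1 to 4, and this probe also fixed the direction of all ratios. Ratios carry no expression level, so a gene that is silent in both samples and a gene that is expressed equally look alike. The ileum label can likewise not be checked against the level of its markers. In whole tissue, fewer cells of a type and less RNA per cell cannot be told apart.

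Several marker lists lay away from 0, most of all in pairs 1 and 3. In pair 3, 18 of 19 measured liver markers lay above 0.5 (range 0.09 to 2.42, median 1.98), as did 7 of 8 exocrine pancreas and 6 of 8 erythroid markers. In pair 1, all 8 goblet cell markers lay below -0.5 (range -2.86 to -0.60) and 5 of 10 distal gut position markers did so, led by Hoxd10 at -3.81. In the same pair 6 of 15 enterocyte markers lay above 0.5. In pair 4, 7 of 19 liver and 3 of 8 pancreas markers lay above 0.5, and 4 of 8 goblet markers below -0.5. Fibroblast and matrix markers had 12 of 12 means below 0, and 8 of the 12 lay below 0 in every pair. The part of these tissues or cells in the members' ratios was not tested.

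No xenobiotic or conjugation enzyme passed the threshold when null was set against wild-type ileum over the 4 pairs. In limma, 0 of 106 members had an adjusted p under 0.05, with the lowest at 0.727, and 0 of the 15123 genes passed (0%). At an unadjusted p under 0.05 there were 8 members, against 6.32% of all genes. Above 0 were 5 of them, against 2.64% of all genes, and below 0 were 3, against 3.68%. The mean ratio of members ran from -0.37 to 0.59. The median of those means was 0.013 for the members and 4.17e-05 for all genes, with 56 members above and 50 below 0. The 95% interval of a member's mean had a median half-width of 0.165, before any adjustment over genes. The adjusted threshold was harder to reach, since Lgr5, at -1.59 ± 0.47 (SD, n = 4), did not pass it either (limma adjusted p = 0.656). With the 8 arrays as units and the pair as a random block, 59 genes passed (0.39%) and 0 members did.

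**Figure D1:**
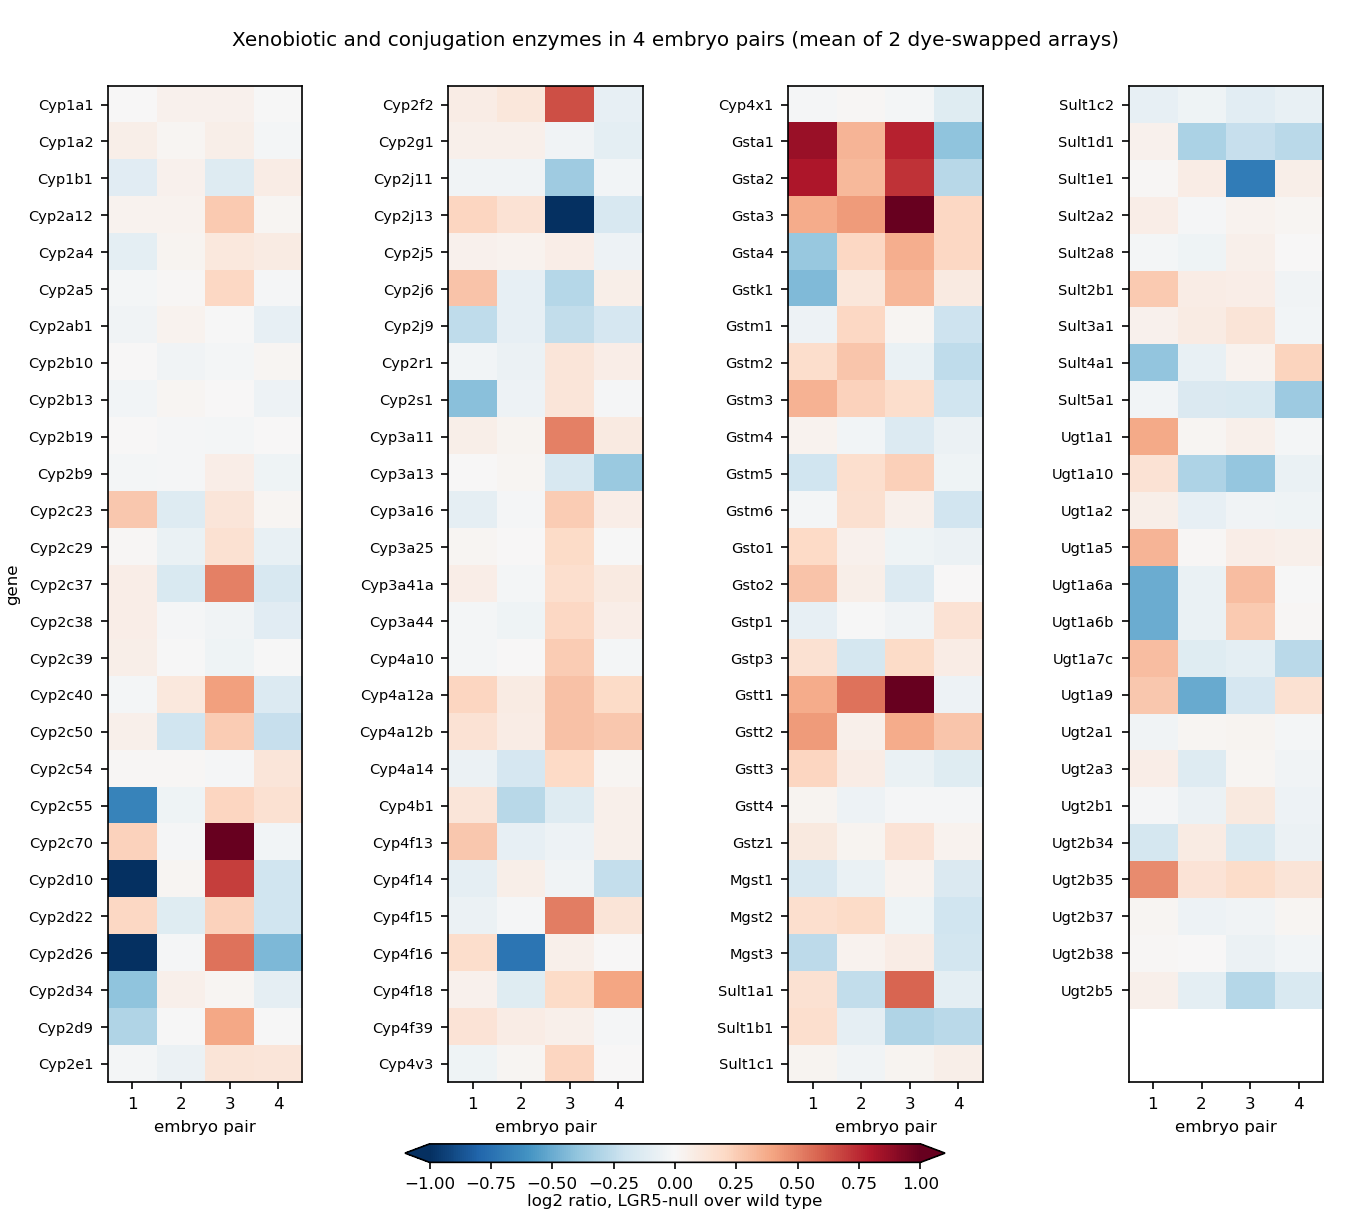
Log2 ratios of LGR5-null over wild-type ileum for all 106 members in each of the 4 embryo pairs, with colours that end at -1 and 1. The strongest colours lie in pairs 1 and 3, such as Cyp2d26 at -1.58 in pair 1 and Cyp2c70 at 1.55 in pair 3.

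Members on 1 side of 0 in all pairs were 9 above it (7.31% of all genes) and 4 below it (8.28% of all genes). Gsta3, an alpha-class glutathione transferase, stood at 0.37, 0.43, 1.35 and 0.21 in the 4 pairs in order, with a mean of 0.59 ± 0.52 (SD, n = 4; limma adjusted p = 0.750). Every pair was above 0, and pair 3 was more than 2 times farther from it than any other. Gstt2, a theta-class transferase, gave 0.42, 0.05, 0.37 and 0.28, a mean of 0.28 ± 0.16 (adjusted p = 0.727). Ugt2b35, a glucuronosyltransferase, gave 0.48, 0.14, 0.18 and 0.13, a mean of 0.23 ± 0.17 (0.727), and was thus carried mostly by pair 1. The fatty acid omega-hydroxylase genes Cyp4a12a and Cyp4a12b, which are close copies, moved alike. Cyp4a12a stood at 0.22, 0.08, 0.29 and 0.19 and Cyp4a12b at 0.15, 0.08, 0.29 and 0.27, with means of 0.19 ± 0.09 and 0.20 ± 0.10. How far the probes separate such copies was not measured. Cyp3a11, the main drug-oxidising P450 of mouse liver, had a mean of 0.17 ± 0.22, and Ugt1a5 and Cyp2a12 had means of 0.12 ± 0.15 and 0.09 ± 0.12. In each of these 3 genes a single pair supplied most of the mean. Ugt1a5 was an average of 4 unlike probes, of which 1 had a mean of -0.05 and stood at -0.26 in pair 2.

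On the other side of 0, Cyp2j9, of a subfamily that oxidises arachidonic acid, gave -0.25, -0.08, -0.24 and -0.17, a mean of -0.19 ± 0.08 (limma adjusted p = 0.727). The sulfotransferase Sult5a1 gave -0.03, -0.15, -0.15 and -0.37, a mean of -0.17 ± 0.14 (0.750). Sult1c2 stood at -0.08 ± 0.03, but at -0.002 on the arrays with null in Cy5 and -0.15 on those with null in Cy3. Sult5a1 likewise stood at -0.07 and -0.28 by dye. Cyp2j11 had a mean of -0.11 ± 0.16 that rested on pair 3, where its 2 arrays gave -0.81 and 0.10. None of these genes passed the test.

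**Figure D2:**
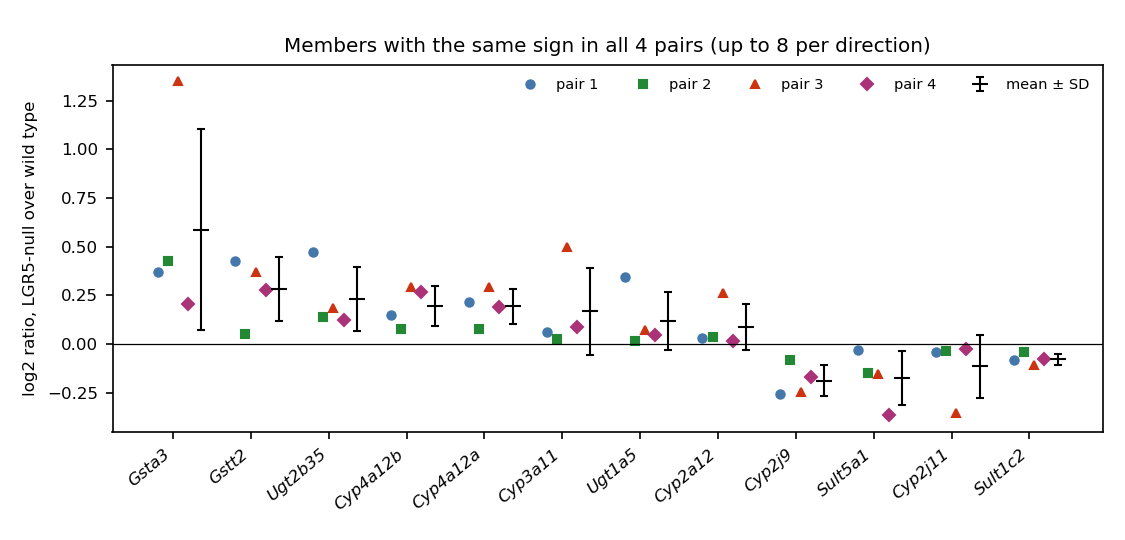
Log2 ratios of the members with 1 sign in all 4 pairs, up to 8 in each direction, as a symbol per pair, with the mean and SD over 4 pairs in black. Gsta3 in pair 3, at 1.35, lies apart from its other pairs. Cyp4a12a, Cyp4a12b and Cyp2j9 have ranges of 0.21, 0.22 and 0.17 across pairs.

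The pairs differed from each other in many members. In limma's moderated F-test of differences among the pairs, fitted with a term for dye, the calls were 48 of 106 members, or 45.3%, beside 30.9% of all genes. The test measures its error between dye-swapped arrays of 1 pair, so any difference among embryos can pass it, whatever their genotype. Without pair 1, 19 members (17.9%) and 7.41% of all genes passed, and without pairs 1 and 3, 13 members (12.3%) and 6.94%. Among families, 14 of 20 Gst, 8 of 16 Ugt, 2 of 3 Mgst, 5 of 12 Sult and 19 of 55 Cyp genes passed. In pair 1 below -0.5 there were 3 members (Cyp2d26, Cyp2d10 and Cyp2c55), against 2.93% of all genes. The median range between the highest and the lowest pair was 0.33 for members and 0.22 for all genes.

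**Figure D3:**
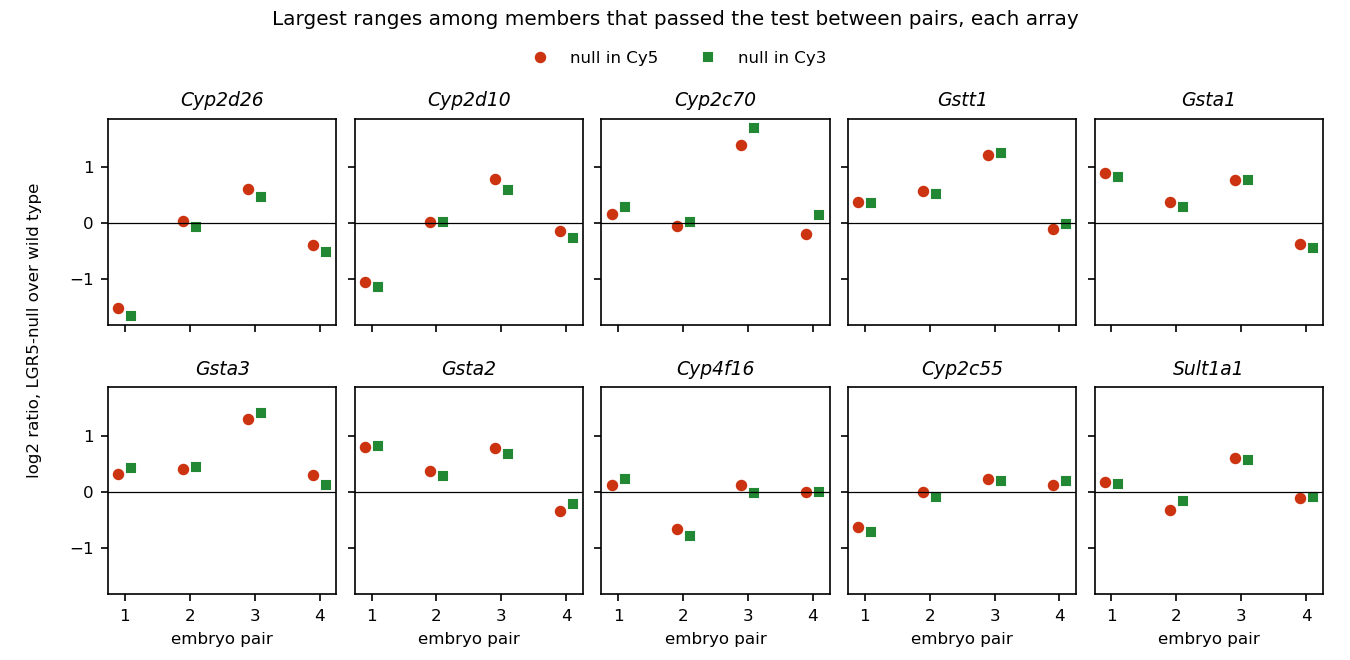
Log2 ratio on each array of the 10 members with the largest range among those that passed the test between pairs, with circles for arrays where the null sample carried Cy5 and squares for arrays where it carried Cy3. The order of the pairs differs from gene to gene. Cyp2j13, with a range of 1.497, did not pass and is not drawn, and its arrays of pair 3 gave -0.47 and -2.09.

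The 2 largest ranges belonged to Cyp2d genes, oxidases of many basic drugs that are best known from liver. Cyp2d26 stood at -1.58, -0.01, 0.54 and -0.45 in the 4 pairs in order, with a mean of -0.37 ± 0.90 (SD, n = 4; limma F-test adjusted p = 2.55e-05). It was low in pair 1 and high in pair 3, and its 2 probes gave -1.48 and -1.68 in pair 1. Cyp2d10 ran the same way, at -1.10, 0.02, 0.69 and -0.20 (9.41e-05). Both genes had the same sign on the 2 arrays of pair 1, of pair 3 and of pair 4. Cyp2d9 gave -0.30, -0.002, 0.39 and -0.004 (0.00556), and Cyp2d34 gave -0.40 in pair 1 but 0.02 in pair 3 (0.0496). Cyp2d22 ran differently, with 0.20 in pair 1, 0.23 in pair 3 and values below 0 in the other two (0.0114). The Cyp2d subfamily was therefore not uniform. How far the probes separate the Cyp2d genes was not measured. Without pair 1 the mean of Cyp2d26 was 0.03 and that of Cyp2d10 was 0.17, on the other side of 0 from the values over all pairs.

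The 250 bases before the gene start are shown for Cyp2d10 and Cyp2d26, which moved together, and below for Gsta1, Gsta2 and Cyp2c70, from RefSeq on mouse build GRCm38.p6. Capitals mark the letters of 5 motifs searched on both strands, namely GCGTG (core of the dioxin receptor site), TGACNNNGC (antioxidant response), GTTAAT (HNF1 motif), TTTATG (core of CDX2) and AGGTCA repeated after 1 base. The Cyp2d10 window is chr15:82407195-82407444 and the Cyp2d26 window chr15:82794246-82794495, both on the minus strand.
Cyp2d10: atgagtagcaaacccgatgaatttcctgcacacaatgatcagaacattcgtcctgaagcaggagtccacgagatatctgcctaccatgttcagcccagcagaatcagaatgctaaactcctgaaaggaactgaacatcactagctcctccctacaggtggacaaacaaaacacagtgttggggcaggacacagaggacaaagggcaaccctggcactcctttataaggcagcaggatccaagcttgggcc
Cyp2d26: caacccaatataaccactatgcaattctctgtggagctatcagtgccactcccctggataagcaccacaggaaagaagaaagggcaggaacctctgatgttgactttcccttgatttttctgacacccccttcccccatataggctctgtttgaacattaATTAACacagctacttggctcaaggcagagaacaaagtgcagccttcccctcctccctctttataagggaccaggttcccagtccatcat
The Cyp2d26 window held 1 match, to GTTAAT, and the Cyp2d10 window held 0. Aligned end to end, the windows were identical at 54.4% of columns, where unrelated windows among the 5 shown gave 44.8% to 51.0%.

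Of the 12 members that passed the test between pairs with their lowest ratio in pair 1 and their highest in pair 3, 5 were liver-type, 4 gut-type and 3 other. They made up 25% of the 48, against 13.4% of all genes that passed. Cyp2c55, a P450 known from mouse colon, stood at -0.67, -0.05, 0.22 and 0.16 (limma F-test adjusted p = 0.000743). Cyp2s1, an epithelial P450 that the dioxin receptor can induce, stood at -0.42, -0.05, 0.12 and -0.01 (0.00284). Both were low in pair 1 alone. Gstk1, a glutathione transferase of mitochondria and peroxisomes, gave -0.44, 0.11, 0.33 and 0.09 (0.00169), and Gsta4, which detoxifies lipid peroxidation products, gave -0.38, 0.21, 0.36 and 0.21 (0.000845). The others were Cyp2d26, Cyp2d10, Cyp2d9, Cyp4f15, Ugt1a6a, Ugt1a6b, Gstm5 and Mgst3. Goblet markers had medians of -1.42 in pair 1 and 0.06 in pair 3, and distal gut markers of -0.59 and 0.05. In pair 1 the distal gut list was split, with 5 of 10 genes below -0.5. Its genes Hoxd11, Hoxd12, Hoxd13, Hoxa13 and Hoxb13 lay between -0.13 and 0.02 there. Neither list was high in pair 3 as a whole. Within them only Zg16, at 1.00, and Car1, at 0.92, lay above 0.5 in pair 3. The part of such cells in the enzyme ratios was not tested.

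Cyp2c70, the P450 that makes muricholic acids, bile acids abundant in mice, was high in 1 pair. It stood at 0.23, -0.009, 1.55 and -0.03 in the 4 pairs in order, with a mean of 0.43 ± 0.75 (SD, n = 4; limma F-test adjusted p = 0.000196). The arrays of pair 3 gave 1.40 and 1.69, far above the rest. Without pairs 1 and 3 its mean was -0.02. Its window, chr19:40187287-40187536 on the minus strand, held 0 matches to the 5 motifs.
Cyp2c70: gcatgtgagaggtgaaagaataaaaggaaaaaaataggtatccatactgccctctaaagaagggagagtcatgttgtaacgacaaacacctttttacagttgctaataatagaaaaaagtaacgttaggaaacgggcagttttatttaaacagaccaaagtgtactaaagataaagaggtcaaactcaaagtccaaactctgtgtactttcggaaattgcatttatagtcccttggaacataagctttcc

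Liver-type members as a class stood above 0 in pair 3. The class had median ratios of 0.02, 0.0005, 0.20 and -0.01 for the 4 pairs in order, and 35 of 44 lay above 0 in pair 3, where 50.8% of all genes did. For 31 of 44 the highest ratio was that of pair 3, against 26.2% of all genes, 4 of 18 gut-type members and 11 of 44 other members. Above 0.5 in pair 3 there were 10 liver-type members, 1 gut-type member (Gsta1) and 1 other member (Gsta2), against 2.48% of all genes. The liver-type ones included Cyp2c70, Gsta3, Gstt1, Cyp2d10 and Cyp2d26. The rest of them were Cyp2f2 at 0.65, Sult1a1 at 0.58, Cyp4f15 at 0.51, Cyp2c37 at 0.50 and Cyp3a11 at 0.50. Liver markers had a median of 1.98 in that pair. The part of liver tissue in the ratios of the class was not tested. Without pair 3 the median mean of the class was -0.002, against 0.04 over all pairs. By the test over 4 pairs 0 liver-type members passed. The classes were set with earlier results of these data known, so the contrast between them is a description.

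**Figure D4:**
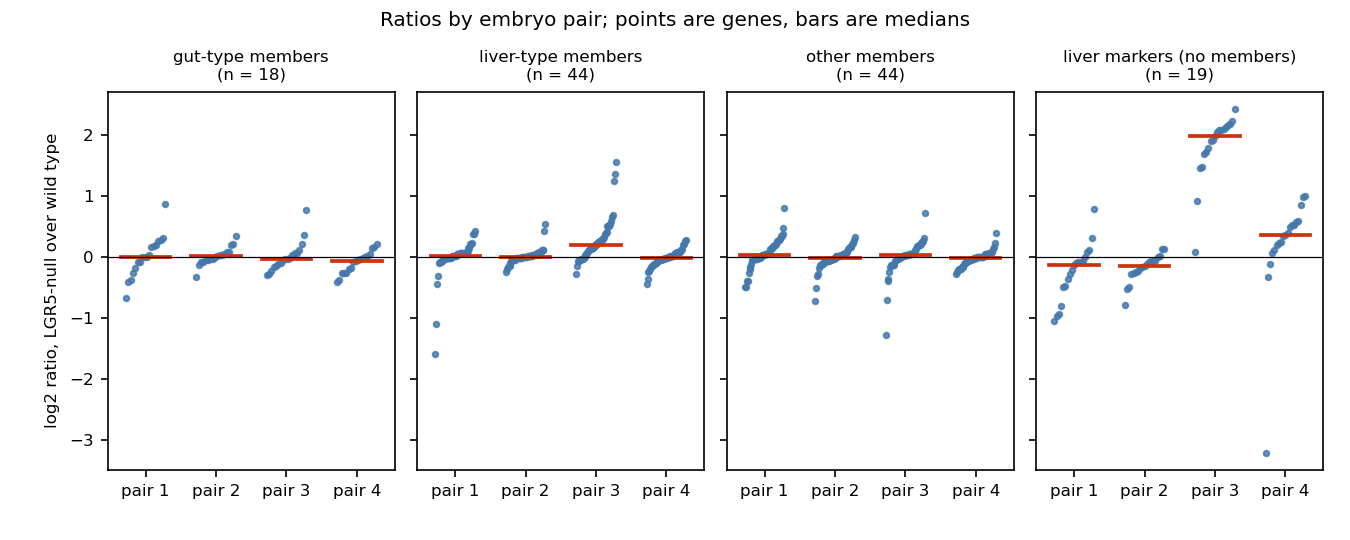
Log2 ratios of gut-type, liver-type and other members and of 19 liver markers in each pair, a point per gene sorted within the pair, with medians as bars. The liver-type median of 0.20 in pair 3 stands out from that class's other pairs, and the liver markers of that pair have a median of 1.98.

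Alpha-class glutathione transferases, which neutralise electrophiles and lipid peroxides, stood mostly above 0. The means of all 4 measured genes lay above 0, from 0.10 to 0.59, where 50% of all genes did. All 4 passed the test between pairs, beside 30.9% of all genes. Gsta1 stood at 0.86, 0.34, 0.77 and -0.40, a mean of 0.39 ± 0.58 (SD, n = 4; F-test adjusted p = 0.000115). Gsta2 stood at 0.81, 0.33, 0.72 and -0.28, a mean of 0.40 ± 0.49 (0.000665). Both were above 0 in 3 pairs and below it in pair 4, on each of its arrays. Gsta1 and Gsta2 are close relatives, and the 2 probes of Gsta2 gave 0.81 and 0.80 in pair 1, so how far Gsta1 and Gsta2 signals are separate was not measured. Null and wild-type ileum did not differ past the threshold in any of the 4 genes (limma adjusted p from 0.750 to 0.878). Their windows lie at chr9:78230419-78230668 on the plus strand for Gsta1 and chr9:78347146-78347395 on the minus strand for Gsta2.
Gsta1: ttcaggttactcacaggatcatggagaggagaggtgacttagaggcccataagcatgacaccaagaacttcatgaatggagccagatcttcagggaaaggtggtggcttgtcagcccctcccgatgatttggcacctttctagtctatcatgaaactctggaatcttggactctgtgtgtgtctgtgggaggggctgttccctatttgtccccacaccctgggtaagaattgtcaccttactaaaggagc
Gsta2: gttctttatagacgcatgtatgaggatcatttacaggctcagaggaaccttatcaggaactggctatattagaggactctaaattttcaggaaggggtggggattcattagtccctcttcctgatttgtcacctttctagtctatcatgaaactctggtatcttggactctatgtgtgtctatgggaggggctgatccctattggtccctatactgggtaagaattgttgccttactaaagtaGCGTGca
These windows were identical at 71.4% of aligned columns, and the Gsta2 window held 1 match, to GCGTG, against 0 for Gsta1.

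Other soluble glutathione transferases were mixed. Gstt1, a theta-class enzyme, stood at 0.37, 0.54, 1.24 and -0.05, a mean of 0.52 ± 0.54 (SD, n = 4; F-test adjusted p = 0.000196). It was above 0 in pairs 1 to 3 and close to it in pair 4. Of the 6 mu-class genes 5 passed the test between pairs, beside 30.9% of all genes. In pair 4 all 6 lay below 0, at -0.25 to -0.04, as did 7558 of 15123 genes. The 2 probes of Gstm1 gave -0.33 and 0.22 in pair 1, and how far the probes separate the mu-class genes was not measured. Gstm3 gave 0.35, 0.23, 0.17 and -0.20 (0.00315) and Gstm2 gave 0.17, 0.28, -0.07 and -0.25 (0.00946). Gstp1, the pi-class enzyme typical of gut epithelium, stayed between -0.08 and 0.15 on 3 probes that lay close together. Gstz1, which isomerises maleylacetoacetate in tyrosine breakdown, stood at 0.07 ± 0.05. Over all 20 Gst genes, 16 means lay above 0, where 50% of all genes did. The membrane enzymes Mgst1, Mgst2 and Mgst3 had means of -0.08 ± 0.09, 0.03 ± 0.19 and -0.09 ± 0.16, with Mgst3 at -0.26 in pair 1 and -0.18 in pair 4.

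The Ugt1a genes, which conjugate bilirubin, phenols and steroids, gave values that differed between probes of the same gene. By textbook knowledge the Ugt1a transcripts of the mouse start from separate first exons and share all later exons. The arrays carry 26 probes for 8 Ugt1a genes. Taking from each gene the probe most like those of the other genes gave 8 probes with nearly the same values, from 0.07 to 0.18 in pair 1, -0.28 to -0.17 in pair 2, -0.14 to -0.003 in pair 3 and -0.10 to 0.08 in pair 4. These 8 were chosen for likeness, so that likeness is a description. Whether they lie in the shared exons was not checked, since probe positions were not used here.

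The other 18 Ugt1a probes differed more, and not every probe of a gene gave the same value. One Ugt1a5 probe stood at 0.04 in pair 1, and the remaining Ugt1a10 probes gave -0.85 and -0.20 in pair 3. The Ugt1a10 probe at -0.85 did not pass the test between pairs (limma F-test on probes, adjusted p = 0.180). Averaged over its probes, Ugt1a10 gave -0.13 and -0.65 on the arrays of pair 3. The 6 remaining probes of Ugt1a6a and Ugt1a6b, which act on planar phenols, lay between -1.18 and -0.48 in pair 1 and between 0.31 and 0.59 in pair 3. They were thus low in pair 1 and high in pair 3, in every probe. The remaining probe of Ugt1a1, the bilirubin-conjugating enzyme, ran the other way, with 0.67 in pair 1 and 0.10 in pair 3. The other two Ugt1a5 probes gave 0.68 and 0.59 in pair 1. The remaining probes of Ugt1a7c, a form of the gastrointestinal tract, gave 0.48 and 0.34 in pair 1 and -0.41 both times in pair 4. Those of Ugt1a9 gave -0.79 and -0.56 in pair 2. Within a gene the probes differed by up to 1.35 in a pair, against at most 0.60 in the other 26 members with more than 1 probe, so the gene averages of Ugt1a6a, at -0.50 in pair 1, and of its neighbours blend unlike probes.

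**Figure D5:**
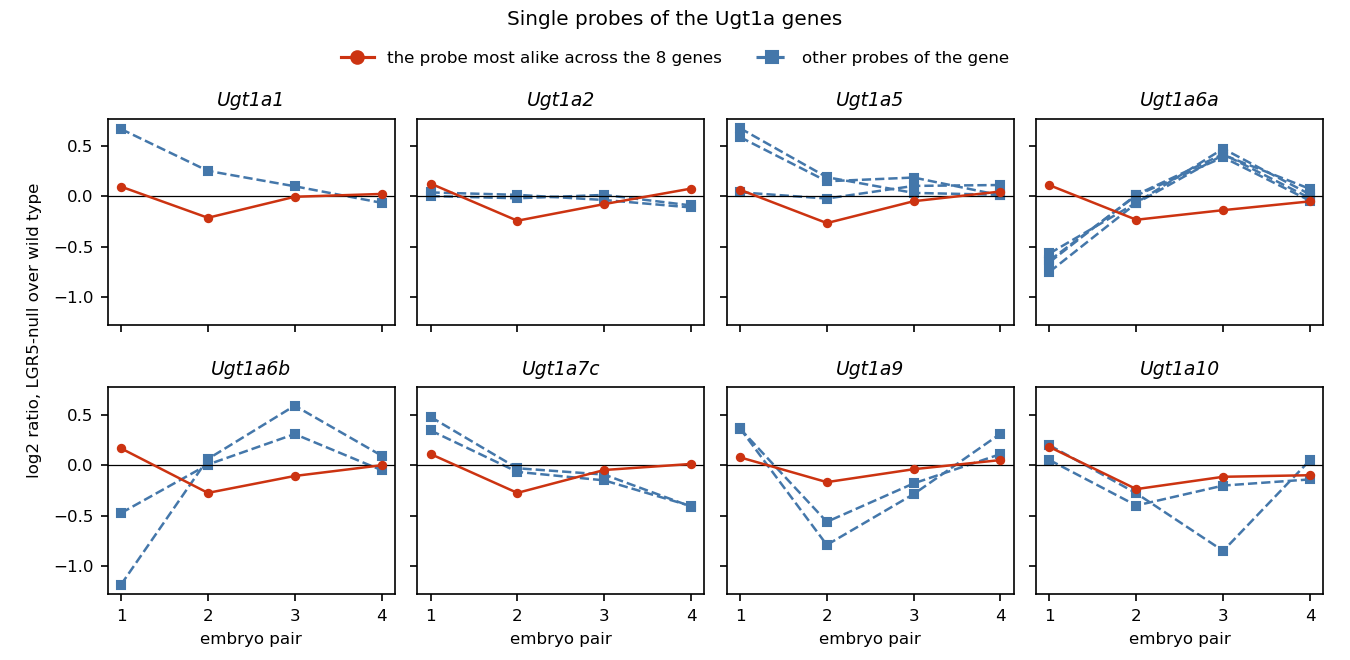
Log2 ratios of the 26 single probes of 8 Ugt1a genes in each embryo pair, with lines that join the values of a probe. Solid lines mark the probe of each gene most like those of the other genes, and dashed lines the rest, such as the Ugt1a6a probes at -0.75 to -0.56 in pair 1.

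The Ugt2 genes, which conjugate steroids and bile acids, stayed closer to 0. Of 8 measured, 7 had a mean below 0, as did 7557 of 15123 genes. For Ugt2a1, Ugt2a3, Ugt2b1, Ugt2b37 and Ugt2b38 the mean lay close to 0, between -0.0205 and -0.0019. Past the test between pairs were 2 of the 8, Ugt2b35 and Ugt2b34, beside 30.9% of all genes. Ugt2b34 gave -0.18, 0.08, -0.16 and -0.06 (F-test adjusted p = 0.0466). Ugt2b5 gave 0.05, -0.10, -0.28 and -0.16, a mean of -0.12 ± 0.14 (SD, n = 4). Ugt2a1, an olfactory form, stayed between -0.04 and 0.03.

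Sulfotransferases tended to small ratios with a few exceptions. Sult1d1, which acts on catecholamines, gave 0.04, -0.32, -0.23 and -0.27, a mean of -0.20 ± 0.16 (SD, n = 4; limma adjusted p = 0.750). Sult1b1, a thyroid hormone sulfotransferase of gut, gave 0.17, -0.09, -0.30 and -0.27 with a mean of -0.12 ± 0.22. Averaged over arrays, both gut-type genes were above 0 in pair 1 and below it in the others. Single arrays did not all share these signs. Sult1d1 gave -0.046 and 0.126 on the arrays of pair 1, and Sult1b1 gave -0.571 and 0.032 on those of pair 4. Sult1b1 did not pass the test between pairs (limma F-test adjusted p = 0.0954). The phenol sulfotransferase Sult1a1 stood at 0.15, -0.25, 0.58 and -0.10 (F-test adjusted p = 0.00134). Sult2b1, which sulfates cholesterol, stood at 0.26, 0.08, 0.07 and -0.03 (0.0413). The brain form Sult4a1 stood at -0.39 in pair 1 and 0.22 in pair 4 (0.00557). The genes Sult1c1, Sult2a2, Sult2a8 and Sult3a1 had means between -0.003 and 0.06. Sult1e1, at -0.14 ± 0.37, rested on pair 3, where it stood at -0.70.

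Among P450 genes outside the Cyp2d group, most ratios were small. The dioxin-inducible Cyp1a1, Cyp1a2 and Cyp1b1 had means of 0.02, 0.03 and -0.03, and 0 of 3 passed the test between pairs. Cyp2b10, a classical target of the receptor CAR, stayed between -0.03 and 0.02. Cyp2e1, the ethanol-oxidising form, stood at 0.04 ± 0.09 and Cyp2r1, a vitamin D 25-hydroxylase, at 0.03 ± 0.08. Over the Cyp2, Cyp3 and Cyp4 families 14 of 33, 2 of 6 and 3 of 13 genes passed between pairs, beside 30.9% of all genes. Cyp3a13, the Cyp3a gene of mouse gut, gave 0.0008, 0.02, -0.16 and -0.37 (F-test adjusted p = 0.00899), and its 3 probes agreed in pair 4, at -0.30, -0.48 and -0.32. Cyp3a13 was thus lowest in pair 4 while the liver-type Cyp3a11 was highest in pair 3. Cyp4f16 was low in pair 2 alone, at 0.17, -0.73, 0.05 and 0.004 (0.00139), with -0.48 and -0.98 on its 2 probes. Cyp2j6, an arachidonic acid epoxygenase of gut, gave 0.28, -0.08, -0.28 and 0.06 (0.0146).

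Some large P450 and sulfotransferase ratios rested on 1 array. The 2 arrays of a pair differed by more than 0.5 for 7 of 424 member values, and 6 of these 7 lay in pair 3, the exception being Sult1b1 in pair 4. Cyp4b1 gave -1.02 and 0.76 on the arrays of pair 3, Cyp2j13 gave -0.47 and -2.09, and Sult1e1, an oestrogen sulfotransferase, gave -0.15 and -1.25. None of these 3 passed the test between pairs, with adjusted p of 0.808, 0.0916 and 0.161.

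Gut-type members did not share 1 direction. Of 18, 7 means lay above and 11 below 0, with class medians of 0.0025, 0.01, -0.04 and -0.06 in pairs 1 to 4, and 12 passed the test between pairs, where 30.9% of all genes did. In pair 1, Gsta1, Ugt1a7c and Cyp2j6 lay at 0.86, 0.31 and 0.28, whereas Cyp2c55, Cyp2s1 and Gsta4 lay at -0.67, -0.42 and -0.38. Enterocyte markers were high in that pair with a median of 0.29, and goblet markers were low with a median of -1.42. Of the distal gut markers 5 of 10 lay below -0.5 there, while Hoxd11, Hoxd12, Hoxd13, Hoxa13 and Hoxb13 lay between -0.13 and 0.02. The 44 other members had a median mean of -0.009, and 19 of them passed between pairs.

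The regulators and helpers of these enzymes also stayed below the threshold. Of 16 measured xenobiotic receptors and regulators 0 passed null against wild type, and 8 passed between pairs, where 30.9% of all genes did. Nr1i2, which encodes the xenobiotic receptor PXR, lay above 0 in every pair, at 0.44, 0.17, 0.15 and 0.21, a mean of 0.24 ± 0.13 (SD, n = 4; limma adjusted p = 0.727). Hnf4a, a factor of liver and gut enzyme genes, also lay above 0 in every pair, at 0.18 ± 0.15 (0.762). The PXR targets Cyp3a11 and Cyp2b10 stood at 0.17 ± 0.22 and -0.0075 ± 0.02. Cyp3a11 gave 0.062, 0.025, 0.50 and 0.088 in the pairs in order, highest in pair 3, where Nr1i2 was lowest. Cebpa stood at 0.18 ± 0.19. Nr1i2, Hnf4a and Cebpa had the lowest p of the 16 regulators, and 6 of the 16 means lay below 0. Of 12 genes that supply cofactors, 0 passed null against wild type, and 8 passed between pairs, beside the same 30.9%. The median mean of these 12 was 0.03, with 5 of 12 below 0. The 3 with the lowest p all lay above 0. Gclm and Gclc, the subunits of the ligase that starts glutathione synthesis, gave 0.22 ± 0.24 and 0.14 ± 0.19, while Papss1, which makes the sulfate donor, gave 0.12 ± 0.16.

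Other detoxifying enzymes and drug transporters gave 0 of 29 and 0 of 7 genes past the threshold of null against wild type. Fmo2, a flavin monooxygenase, lay below 0 in every pair at -0.54, -0.34, -0.09 and -0.32, a mean of -0.32 ± 0.18 (SD, n = 4; limma adjusted p = 0.727). The fibroblast and matrix markers, with medians of -0.39, -0.19, -0.14 and -0.43, were below 0 in the same pairs, and their part in the Fmo2 ratio was not tested. Adh5 stood at 0.13 ± 0.10 and the carboxylesterase gene Ces2a at 0.21 ± 0.23. Among pumps and uptake carriers, Abcc1 stood at 0.06 ± 0.02, Slco1a4 at -0.02 ± 0.03 and Abcb1a at -0.20 ± 0.50. Abcb1a lay below 0 in pair 3 alone, at -0.95, with 0.07, 0.02 and 0.08 in pairs 1, 2 and 4. It did not pass the test between pairs (limma F-test adjusted p = 0.288). Between pairs 18 of 29 enzymes and 3 of 7 transporters passed, beside 30.9% of all genes.

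Promoter windows were found in RefSeq for 91 of 106 members. The letters GCGTG occurred in 22 of 108 member windows, or 20.4%, against 36.6% of 15217 windows of all genes. They occurred in 1 of 44 liver-type and 7 of 19 gut-type windows. GTTAAT occurred in 12.0% of member windows against 5.59% of all, TTTATG in 12.0% against 8.54%, TGACNNNGC in 4.63% against 10.9%, and the repeat of AGGTCA after 1 base in 0 member windows against 0.046% of all. No test was made of these shares, and a match is only an occurrence of letters.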

How the data were processed

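Amplified RNA from null and wild-type ileum, labelled with different dyes, was hybridised together on MEEBO arrays, per the labels' protocols. The authors deposited 1 log ratio per probe and array, taken here as log2, since no source used here states its base, numerator, background correction or normalization. Array medians lay between -0.002 and 0.002 and the arrays of a pair, with dyes exchanged, correlated across probes at r = 0.309 to 0.779, so the ratios were read as already turned by the authors. Their likely direction, null over wild type, rests on Lgr5.

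Of 38467 probes, 22941 have 1 gene symbol and 15526 have none. All 22941 matched RefSeq genes by identifier, which gave 15123 genes. Probes of a gene and then both arrays of a pair were averaged (n = 4 pairs). limma 3.58.1 in R 4.3.3 tested means against 0 and differences between pairs on all genes, with Benjamini-Hochberg adjustment at 0.05. Members were named by largest mean with 1 sign in all pairs, by largest range among those that passed the test between pairs and by largest mean of a family. Other members appear by family, and genes of other lists by lowest p or chosen after their values were seen. Members and lists were chosen with earlier results of these data known. Both tests were checked on simulated data on 15123 genes, where 99 of 100 genes changed by 1 were recovered in each, 99 and 97 of 100 changed by 2, and 13 and 19 of 14923 unchanged genes were called. The simulated noise was drawn independently for every gene and value, at each gene's moderated variance. The recovery therefore does not measure the power of the tests on the data, where Lgr5 was not called against wild type. With 4 pairs, the smallest p of an exact sign-flip test is 0.125. Common parents would make pairs less independent, and the number of arrays limits the precision. Promoter windows were aligned with Biopython 1.88. Alternatives left out each pair, used 1 dye orientation, other scalings, probe summaries and tests.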

Additional observations from a re-analysis of the deposited data

Results flagged for a closer look

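A value is given here when 1 pair lay far from the other 3, by Dixon's criterion for 4 values. Chance does this for about 1 in 20 independent items, or 1.4 of 28. The 28 items examined overlap, and most were named from the same 4 values, for a large range or a large mean of 1 sign. The 1.4 is therefore not the number to expect among them. Found were 7, 5 of them in pair 3 and 2 in pair 1. In pair 3, Cyp2c70 stood at 1.545, against -0.03 to 0.23 in the other pairs. Cyp3a11 stood at 0.5005 there, against 0.025 to 0.088, and Cyp2a12 at 0.265, against 0.018 to 0.037. The median of the liver-type members was 0.202 in pair 3, against -0.014 to 0.018. Cyp2j11 stood at -0.356 in that pair, against -0.039 to -0.0275, with its 2 arrays at -0.81 and 0.10. In pair 1, Ugt2b35 stood at 0.4755, against 0.126 to 0.184, and Ugt1a5 at 0.343, against 0.014 to 0.070. The single probes of Ugt1a5 ran from 0.0415 to 0.676 in pair 1.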

How the results depend on the processing

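The count of 0 members past the threshold of null against wild type was the same in limma under every alternative run, while 5 to 13 members had an unadjusted p under 0.05, with 13 without pair 1 and 5 with no moderation. The count over all genes was 0 except in a fit on single arrays with a random block for the pair, where it was 59 genes and Lgr5 passed. The count of members that differed between pairs ran from 19 to 46 when 1 pair was left out, lowest without pair 1, and was 13 without pairs 1 and 3, an alternative chosen after seeing the data. Over all genes it ran from 1121 to 4924, and was 1050 without pairs 1 and 3, 3106 without the dye term and 8384 with 36591 probes in place of genes. Leaving out the Ugt1a genes, also chosen after seeing the data, left 42 of 98 members. The class medians of gut-type, liver-type, other and all members moved by less than their spread between pairs under every alternative run for them, although those of the liver-type and of all members were -0.002 and -0.005 without pair 3. That of the other members, -0.009, was above 0 without pair 2 (0.00167), without pair 4 (0.00108) and with null in Cy5 alone (0.00075) or Cy3 alone (0.0136).

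Means of named members changed sign in 9 cases. When 1 pair was left out, Cyp2d26 ranged from -0.68 to 0.0272 and Cyp2d10 from -0.425 to 0.172, both above 0 without pair 1. Cyp2c55 ranged from -0.187 to 0.109, likewise above 0 without pair 1. Cyp4f16 ranged from -0.224 to 0.0769, above 0 without pair 2, and Sult1a1 from -0.0656 without pair 3 to 0.211. Without pairs 1 and 3, Cyp2c70 was -0.0177, Gsta1 -0.0333, Cyp2c55 0.0553 and Sult1a1 -0.174. Fewer pairs entered each of these means. The deposited values hold no intensities, so signal over background, and with it which ratios near 0 come from silent genes, is unknown.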
